A study of Mus musculus with 24 samples.

Results

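The 39 genes described here are interferon-stimulated genes, genes whose transcription rises when a cell senses an interferon, and they were chosen by symbol with earlier results of these data known. They are 39 of the 23361 gene rows of the deposited expression table, and 36 of them passed the filter on low values (1 FPKM or more in at least 4 libraries) and could be tested. RNA was sequenced from mouse acute myeloid leukaemia cells taken from spleens. The leukaemia of every group carried NRASG12V, a constitutively active NRAS, together with Mll-AF9, a fusion of the histone methyltransferase MLL with AF9, in mice of the (FVB/n X C57/BL/6J) F1 strain. The sorted groups were MacLowKit+Sca1+ (4 libraries), MacLowKit+Sca1-, MacLowKit-Sca1- and MacHigh cells (5 libraries each), and they were set against one another and against unsorted cells (5 libraries). Mac-1 is a myeloid surface integrin, Kit a receptor of stem and progenitor cells, and Sca-1 a surface protein of stem cells. The series title speaks of a leukaemia stem cell-enriched population, and the comparisons address how the sorted populations differ from one another; the labels of the samples do not say which sort is meant. No group is of healthy cells or is labelled as kept free of interferon, so no value stands for cells without the leukaemia or without interferon.

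Type I interferons bind the receptor pair Ifnar1 and Ifnar2 and activate the kinases Jak1 and Tyk2, which phosphorylate STAT proteins such as Stat2. Stat2 acts in a complex with Irf9 that binds a DNA element named ISRE. Interferon gamma acts through Ifngr1 and Ifngr2, and its target genes are reached through an element named GAS. The products of the induced genes sense viral nucleic acids, block viral translation and assembly, attack pathogens in vacuoles, or dampen the response again. In blood formation the pathway is known to act on haematopoietic stem cells, and Sca-1 (Ly6a) is itself interferon-induced in mice.

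Levels are FPKM as deposited by the authors, that is, fragments scaled to the length of the transcript and to the number of mapped fragments, so levels can be compared between genes per length. Read counts were not analysed here, so the depth of a library and the counting error of a value are unknown. Low values gave a relative depth of 0.797 to 1.95 between libraries. The sample names carry the prefixes 11, 12, 26, L, N and R, whose meaning the labels do not give, and nothing says that libraries of one group came from separate animals, so p-values measure only the spread between these libraries. Per-library values below follow the prefix order 11, 12, 26 and R in MacLowKit+Sca1+, 11, 26, L, N and R in MacLowKit+Sca1- and in MacHigh, 11, 12, 26, L and R in MacLowKit-Sca1-, and 12, 26, L, N and R in unsorted cells. The means of the sort markers followed the labels: Itgam, which encodes the alpha chain of Mac-1, averaged 62 FPKM in MacLowKit+Sca1+, 267 in MacLowKit+Sca1-, 267 in MacLowKit-Sca1- and 633 in MacHigh cells, and Kit averaged 34.3, 39.8, 0.668 and 5.79 FPKM in the same order. By library Itgam ran from 137 to 421.5 FPKM in MacLowKit+Sca1- and 158 to 382 in MacLowKit-Sca1-. It ran from 582 to 693 in MacHigh and 298 to 392 in unsorted libraries. In bulk RNA of this kind fewer cells of a type and less RNA per cell cannot be told apart. Several members have near-identical relatives (Oas1a, the Ifit, Gbp, Irgm and Trim30 genes), and how fragments were shared among them is not given in the sources used here.

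The stretch before the start of these genes was read first, because interferon acts on them through it. RefSeq promoter entries of GRCm38.p6 (the assembly also named mm10), running from 250 bases before to 50 bases after a gene's start, were present for 28 of the 39 members. Dhx58, Zbp1, Oas2, Rtp4, Mx1, Mx2, Usp18, Parp9, Parp14, Gbp6 and Iigp1 had no entry. The ISRE core was searched as GAAA, any 2 bases and again GAAA, which on the other strand reads TTTC, any 2 bases and TTTC, and GAS as TTCNNNGAA, which reads the same on both strands. The ISRE core stood in 18 of the 28 members (64.3%), against 1079 of 27025 genes with a promoter entry (3.99%). GAS stood in 9 of the 28 members (32.1%), against 9.55% of those genes, and 6 members held both. Of 10 GAS matches 1 overlapped an ISRE core. The 27 ISRE core matches of the members had a median position of 59 bases before the start, and 21 of them (77.8%) lay within the 150 bases before it. In all promoters together 580 of 1210 matches (47.9%) lay there, with a median of 123 bases before the start. A match describes these letters and is not evidence of binding.

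Windows around the ISRE cores are shown for members with several cores (Isg15, Ifit1, Ifit3, Oas1a, Irgm1, Bst2, Gbp3), for other members on whose levels the results turn (Oas3, Trim30a, Gbp2), and for a pair of neighbouring GTPase genes with almost the same promoter (Igtp, Irgm2). Each is written 5′ to 3′ on the strand of its gene, ends before the start of the transcript, and has the ISRE core matches in capitals.
Isg15 at chr4:156200855-156200916, minus strand: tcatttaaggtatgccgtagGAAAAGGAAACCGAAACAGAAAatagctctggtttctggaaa
Ifit1 at chr19:34640765-34640833, plus strand: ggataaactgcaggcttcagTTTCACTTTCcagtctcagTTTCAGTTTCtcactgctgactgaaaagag
Ifit3 at chr19:34583353-34583436, plus strand: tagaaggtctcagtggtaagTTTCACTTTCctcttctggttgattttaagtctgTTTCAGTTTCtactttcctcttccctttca
Oas1a at chr5:120907526-120907565, minus strand: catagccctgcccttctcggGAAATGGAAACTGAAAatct
Oas3 at chr5:120777705-120777754, minus strand: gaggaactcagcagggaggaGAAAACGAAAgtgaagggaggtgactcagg
Bst2 at chr8:71537567-71537622, minus strand: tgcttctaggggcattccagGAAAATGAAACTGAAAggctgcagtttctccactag
Trim30a at chr7:104465200-104465249, minus strand: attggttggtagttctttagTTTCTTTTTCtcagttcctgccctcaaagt
Gbp2 at chr3:142620584-142620633, plus strand: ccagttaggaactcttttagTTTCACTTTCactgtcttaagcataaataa
Gbp3 at chr3:142559979-142560034, plus strand: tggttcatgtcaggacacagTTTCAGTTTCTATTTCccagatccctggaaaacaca
Irgm1 at chr11:48871421-48871470, minus strand: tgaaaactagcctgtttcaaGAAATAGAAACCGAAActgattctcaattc
Igtp at chr11:58199502-58199551, plus strand: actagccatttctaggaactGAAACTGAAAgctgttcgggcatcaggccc
Irgm2 at chr11:58214893-58214942, plus strand: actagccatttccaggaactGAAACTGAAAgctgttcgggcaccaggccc
The cores of Isg15 run into each other as 3 overlapping matches, while those of Ifit1 and Ifit3 stand apart. The Igtp and Irgm2 windows are identical at 48 of 50 bases. Gbp3 and Gbp2, both on chromosome 3, carry the core on the strand opposite to the gene. So do Ifit1, Ifit3 and Trim30a in the windows above, among other members. The members with a promoter entry but no core in it were Ifit2, Ifi35, Ifi44, Ifi47, Isg20, Oasl1, Oasl2, Parp12, Samd9l and Xaf1.

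**Figure D1:**
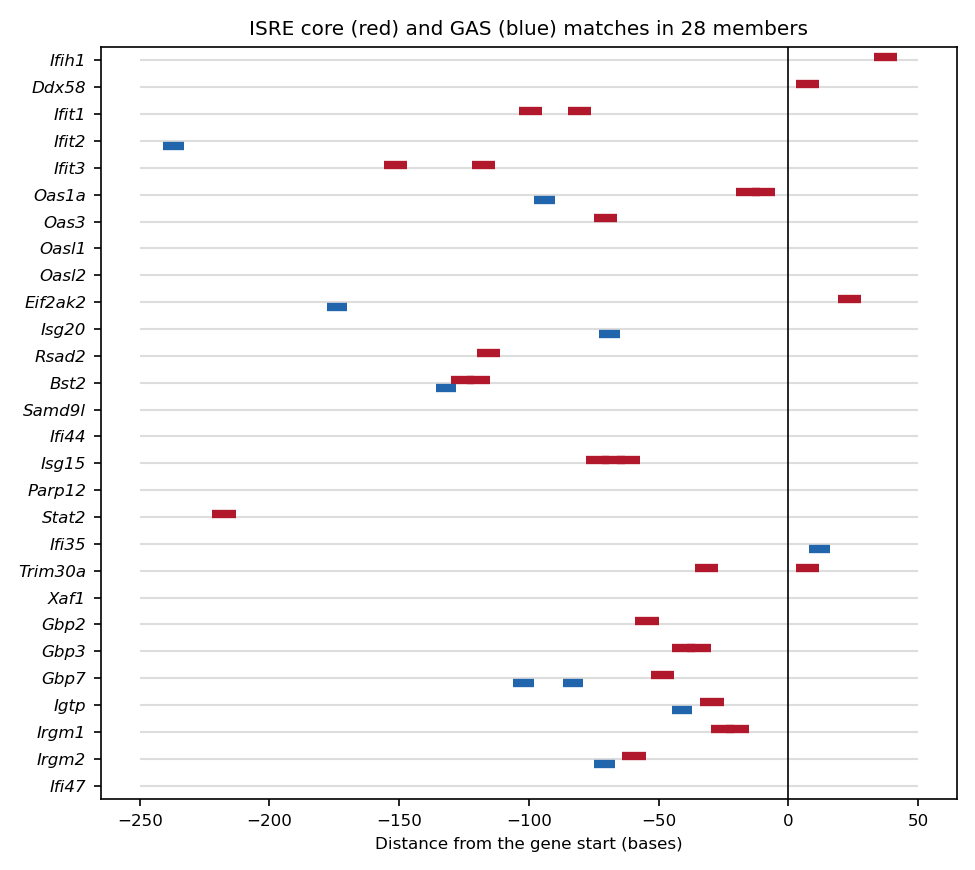
Positions of ISRE core (red) and GAS (blue) matches in the promoter entries of 28 members, against the distance from the gene start in bases; entries of one gene with several starts share a row. Most red marks lie in the 150 bases before the start, where 21 of the 27 ISRE core matches fall.

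The members were spread over all levels: 5 averaged under 1 FPKM over the 24 libraries, 20 lay at 1 to 10 FPKM and 14 at 10 FPKM or more, with a median of 7.25 FPKM over the 36 tested members and 14.9 FPKM over all rows tested. Summed over the 39 members, the level per library was 447 to 604 FPKM in MacLowKit+Sca1+, 262 to 307 in MacLowKit+Sca1-, 298 to 415 in MacLowKit-Sca1-, 412 to 709 in MacHigh and 369.5 to 452 in unsorted cells. The MacLowKit+Sca1+ and MacHigh ranges overlapped each other and lay above all MacLowKit+Sca1- and MacLowKit-Sca1- libraries, apart from the highest MacLowKit-Sca1- library, which lay just above the lowest MacHigh library. Among the sorted groups MacHigh had the highest mean in 17 of the 36 tested members and MacLowKit+Sca1+ in 12, and MacLowKit+Sca1- had the lowest mean in 20 and MacLowKit-Sca1- in 12. When the 4 sorted groups were tested together (limma F test), 32 of the 36 members differed at an adjusted p under 0.05, where 83.2% of all rows tested did, so differing at all does not set the members apart. Ifi44, Gbp6 and Iigp1 did not pass the filter.

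The members were mostly higher in MacLowKit+Sca1+ than in both other MacLow groups. These groups were gated on Sca-1, which is itself interferon-induced in mice. The part of this gate in the member levels was not tested, and these groups cannot tell it apart. Against MacLowKit+Sca1- cells 23 of 36 were higher, 3 lower and 10 not called, with a median log2 difference of 0.91 on the log2(FPKM + 1) scale and -0.02 over all rows tested, where 55.2% of rows were called (26.8% higher, 28.5% lower). Against MacLowKit-Sca1- cells the counts were 23 higher, 3 lower and 10 not called, with medians of 0.65 in the members and -0.03 in all rows (45.2% called, 21.8% higher and 23.3% lower). Against MacHigh cells 3 members were higher, 10 lower and 23 not called, with medians of -0.03 and 0.03. There 46% of all rows were called (23.6% higher, 22.4% lower), a larger share than among the members.

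In MacLowKit+Sca1- cells the members were mostly lower than in MacHigh cells, and 18 of 36 were lower than in MacLowKit-Sca1- cells. Against MacHigh cells 27 of 36 were lower, 2 higher and 7 not called, with a median log2 difference of -1.08 in the members and 0.03 in all rows, of which 62.8% were called (32.5% higher, 30.3% lower). Against MacLowKit-Sca1- cells 18 were lower, 6 higher and 12 not called (medians -0.35 and -0.02; 50.2% of all rows called, 24% higher and 26.3% lower). MacLowKit-Sca1- cells in turn had 26 members lower, 1 higher and 9 not called against MacHigh cells, with medians of -0.82 and -0.02 (50.8% of all rows called, 24.5% higher and 26.2% lower). These comparisons share groups and are not independent of one another. The shares of all rows given for each comparison also apply to the counts of gene classes and lists below.

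**Figure D2:**
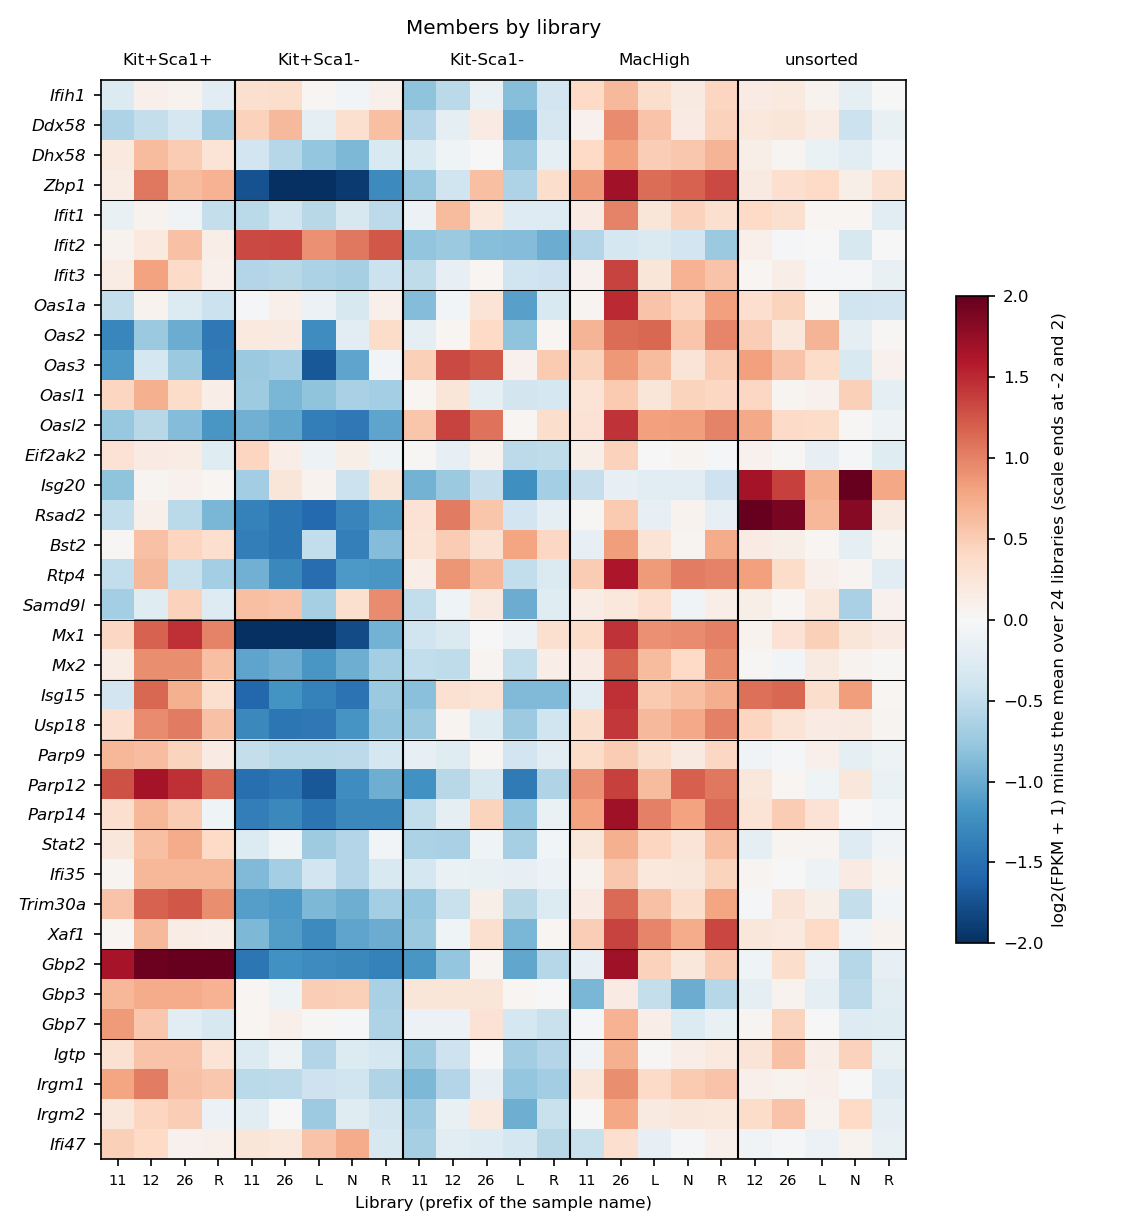
log2(FPKM + 1) of the 36 tested members in each of the 24 libraries, centred on the mean over libraries, with members grouped by role and libraries by group (the MacLow part of the names is left out). Red is above the mean and blue below; the Kit+Sca1- columns are mostly blue, the Kit+Sca1+ and MacHigh columns mostly red, and rows such as Ifit2 and Ddx58 depart from this.

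Among the sensors of viral nucleic acid, Zbp1 and Dhx58 had the same order of means over the sorted groups. The cytosolic RNA sensors Ddx58 and Ifih1 departed from it, and MacHigh cells had the highest sorted mean of each of these genes. Zbp1 (chromosome 2, 173206612 to 173218959) encodes a protein that binds Z-form nucleic acids and can start cell death. Zbp1 had 7.35, 14.6, 10.6 and 11.2 FPKM in the MacLowKit+Sca1+ libraries and 1.26, 0.782, 0.621, 0.986 and 2.12 in the MacLowKit+Sca1- libraries. It had 3.45, 4.68, 10.5, 3.92 and 8.61 FPKM in MacLowKit-Sca1-, 12.7, 23, 15.3, 16 and 17.7 in MacHigh and 7.55, 8.5, 8.91, 7.16 and 8.28 in unsorted libraries. All MacLowKit+Sca1- libraries lay below all other libraries, and the MacLowKit+Sca1+ range overlapped that of MacHigh. The log2 difference was 2.48 ± 0.24, limma adjusted p = 1.65e-08 for MacLowKit+Sca1+ against MacLowKit+Sca1- cells, and -3.07 ± 0.23, limma adjusted p = 1.16e-10 for MacLowKit+Sca1- against MacHigh cells. Dhx58 (chromosome 11, 100694884 to 100704271) encodes LGP2, which tunes both RNA sensors. Dhx58 had 13.3, 18.3, 16.7 and 14.1 FPKM in the MacLowKit+Sca1+ libraries and 8.62, 7.42, 6.3, 5.68 and 9.11 in the MacLowKit+Sca1- libraries. It had 9.1, 10.8, 11.5, 6.24 and 9.91 FPKM in MacLowKit-Sca1-, 15.6, 21.1, 16.6, 17.2 and 19 in MacHigh and 12.6, 12, 10.5, 9.77 and 11.1 in unsorted libraries. Both MacLowKit+Sca1+ and MacHigh libraries lay above every MacLowKit+Sca1- and MacLowKit-Sca1- library, with a difference of 0.99 ± 0.15, limma adjusted p = 5.11e-06 for MacLowKit+Sca1+ against MacLowKit+Sca1- and 0.67 ± 0.15, limma adjusted p = 0.000641 against MacLowKit-Sca1-.

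Ddx58 (chromosome 4, 40203777 to 40239825), which encodes the RNA sensor RIG-I, went the other way between MacLowKit+Sca1+ and MacLowKit+Sca1- cells. Ddx58 had 3.55, 3.99, 4.53 and 3.22 FPKM in the MacLowKit+Sca1+ libraries and 8.58, 9.96, 5.16, 7.68 and 9.58 in the MacLowKit+Sca1- libraries. It had 3.64, 5.18, 6.79, 2.52 and 4.54 FPKM in MacLowKit-Sca1-, 6.39, 12.4, 9.32, 6.83 and 8.63 in MacHigh and 7.05, 7.29, 6.7, 4.16 and 5.32 in unsorted libraries. Every MacLowKit+Sca1+ library lay below every MacLowKit+Sca1- and MacHigh library. It was lower in MacLowKit+Sca1+ than in MacLowKit+Sca1- cells (log2 difference -0.91 ± 0.21, limma adjusted p = 0.000867) and than in MacHigh cells (-0.98 ± 0.21, limma adjusted p = 0.000586). Ifih1, which encodes the long double-stranded RNA sensor MDA5, had 3.23 to 4.48 FPKM in MacLowKit+Sca1+, 3.92 to 5.48 in MacLowKit+Sca1-, 1.82 to 3.66 in MacLowKit-Sca1-, 4.75 to 6.97 in MacHigh and 3.45 to 4.8 in unsorted libraries. For MacLowKit+Sca1+ against MacLowKit+Sca1- cells Ifih1 was not called without a block (adjusted p = 0.162 by limma) and was called lower once the prefix was added to the model as a block (-0.35, limma adjusted p = 0.00525).

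The IFIT genes encode proteins that bind viral RNA and hold back its translation. Ifit2 (chromosome 19, 34550550 to 34576534) was the clearest exception among all members. Ifit2 had 6.71, 7.47, 10 and 7.03 FPKM in the MacLowKit+Sca1+ libraries and 17.4, 17.6, 12.9, 14.3 and 16.4 in the MacLowKit+Sca1- libraries. It had 3.25, 3.41, 3.08, 3.03 and 2.69 FPKM in MacLowKit-Sca1-, 3.88, 4.76, 5.03, 4.63 and 3.41 in MacHigh and 6.88, 6.26, 6.4, 4.88 and 6.31 in unsorted libraries. Every MacLowKit+Sca1- library lay above every other library, and every MacLowKit+Sca1+ library above every MacLowKit-Sca1- and MacHigh library. The difference was -0.93 ± 0.12, limma adjusted p = 7.08e-07 for MacLowKit+Sca1+ against MacLowKit+Sca1- cells, 1.09 ± 0.12, limma adjusted p = 1.05e-07 for MacLowKit+Sca1+ against MacLowKit-Sca1-, and 1.65 ± 0.11, limma adjusted p = 2.2e-11 for MacLowKit+Sca1- against MacHigh. Its neighbours Ifit1 and Ifit3 were low and ordered differently. Ifit3 had 0.861 to 2.03 FPKM in MacLowKit+Sca1+, 0.0961 to 0.296 in MacLowKit+Sca1-, 0.218 to 0.789 in MacLowKit-Sca1-, 0.844 to 3.41 in MacHigh and 0.563 to 0.9 in unsorted libraries, so that its lowest group was the one in which Ifit2 was highest. Ifit1 had 0.202 to 0.748 FPKM in MacLowKit+Sca1+, 0.128 to 0.331 in MacLowKit+Sca1-, 0.386 to 1.58 in MacLowKit-Sca1-, 0.86 to 2.31 in MacHigh and 0.427 to 1.2 in unsorted libraries.

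The 2-5A synthetases, which on contact with double-stranded RNA make the small activator of RNase L, were mostly lower in MacLowKit+Sca1+ and in MacLowKit+Sca1- than in MacHigh cells. Of the 5 genes of this class, 4 were lower in MacLowKit+Sca1+ than in MacHigh cells and none was higher, and 3 were lower and 1 higher than in MacLowKit-Sca1- cells. Between MacLowKit+Sca1+ and MacLowKit+Sca1- cells 1 was higher, 1 lower and 3 not called, and the class sums overlapped, at 9.3 to 17.8 FPKM in MacLowKit+Sca1+ and 8.92 to 20.8 in MacLowKit+Sca1- libraries. In MacLowKit+Sca1- cells all 5 were lower than in MacHigh cells. Oas2 had 1.78, 3.11, 2.47 and 1.57 FPKM in the MacLowKit+Sca1+ libraries and 6.92, 6.82, 1.9, 4.95 and 7.92 in the MacLowKit+Sca1- libraries. It had 5.11, 6.06, 8.1, 2.93 and 6.09 FPKM in MacLowKit-Sca1-, 10, 13.9, 14.2, 9.1 and 12.6 in MacHigh and 8.7, 6.94, 10.1, 5.02 and 5.98 in unsorted libraries. Oas2 (chromosome 5, 120730333 to 120749886) was thus lower in every MacLowKit+Sca1+ library than in any MacHigh library (-2.01 ± 0.27, limma adjusted p = 2.88e-06), while its MacLowKit+Sca1+ and MacLowKit+Sca1- ranges met through the low L library of MacLowKit+Sca1-. Oas3 had 1.94, 4.14, 2.9 and 1.47 FPKM in the MacLowKit+Sca1+ libraries and 2.92, 3.01, 1.01, 2.15 and 5.28 in the MacLowKit+Sca1- libraries. It had 8.11, 15.2, 14.4, 5.95 and 8.35 FPKM in MacLowKit-Sca1-, 7.89, 10.9, 9.13, 6.78 and 8.33 in MacHigh and 10.5, 8.69, 7.43, 4.31 and 5.96 in unsorted libraries. Oas3 (chromosome 5, 120753098 to 120777684) was high in MacLowKit-Sca1- and MacHigh libraries and low in the 2 Kit+ groups, with -1.64 ± 0.29, limma adjusted p = 9.32e-05 for MacLowKit+Sca1+ against MacLowKit-Sca1- and -1.58 ± 0.28, limma adjusted p = 6.22e-05 for MacLowKit+Sca1- against MacLowKit-Sca1- cells.

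Oasl2 (chromosome 5, 114896926 to 114912245), a synthetase-like gene, was likewise low in both Kit+ groups. Oasl2 had 1.85, 2.3, 1.66 and 1.15 FPKM in the MacLowKit+Sca1+ libraries and 1.48, 1.34, 0.857, 0.787 and 1.33 in the MacLowKit+Sca1- libraries. It had 6.09, 11.3, 9.3, 3.97 and 5.18 FPKM in MacLowKit-Sca1-, 4.92, 12.2, 7.5, 7.59 and 8.62 in MacHigh and 7.14, 5.33, 5.24, 3.93 and 3.53 in unsorted libraries. No MacLowKit+Sca1+ or MacLowKit+Sca1- library reached the lowest MacLowKit-Sca1- library, and the differences were -1.51 ± 0.24, limma adjusted p = 2.03e-05 for MacLowKit+Sca1+ against MacLowKit-Sca1-, -1.71 ± 0.24, limma adjusted p = 3.95e-06 for MacLowKit+Sca1+ against MacHigh, and -2.05 ± 0.23, limma adjusted p = 4.76e-08 for MacLowKit+Sca1- against MacHigh cells. Oasl1, which in mice holds back translation of Irf7, did not share this pattern and had 1.28 to 2.42 FPKM in MacLowKit+Sca1+, 0.102 to 0.33 in MacLowKit+Sca1-, 0.626 to 1.48 in MacLowKit-Sca1-, 1.47 to 1.99 in MacHigh and 0.831 to 1.92 in unsorted libraries. Oas1a had 3.65 to 5.79 FPKM in MacLowKit+Sca1+, 4.2 to 5.94 in MacLowKit+Sca1-, 2.07 to 6.82 in MacLowKit-Sca1-, 5.74 to 17.2 in MacHigh and 3.94 to 7.8 in unsorted libraries. Under the prefix block Oas1a was called lower in MacLowKit+Sca1+ than in MacLowKit+Sca1- cells (-0.44, limma adjusted p = 0.0452, against 0.501 without it) and higher in MacLowKit+Sca1- than in MacLowKit-Sca1- cells (0.51, limma adjusted p = 0.017, against 0.253 without it).

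**Figure D3:**
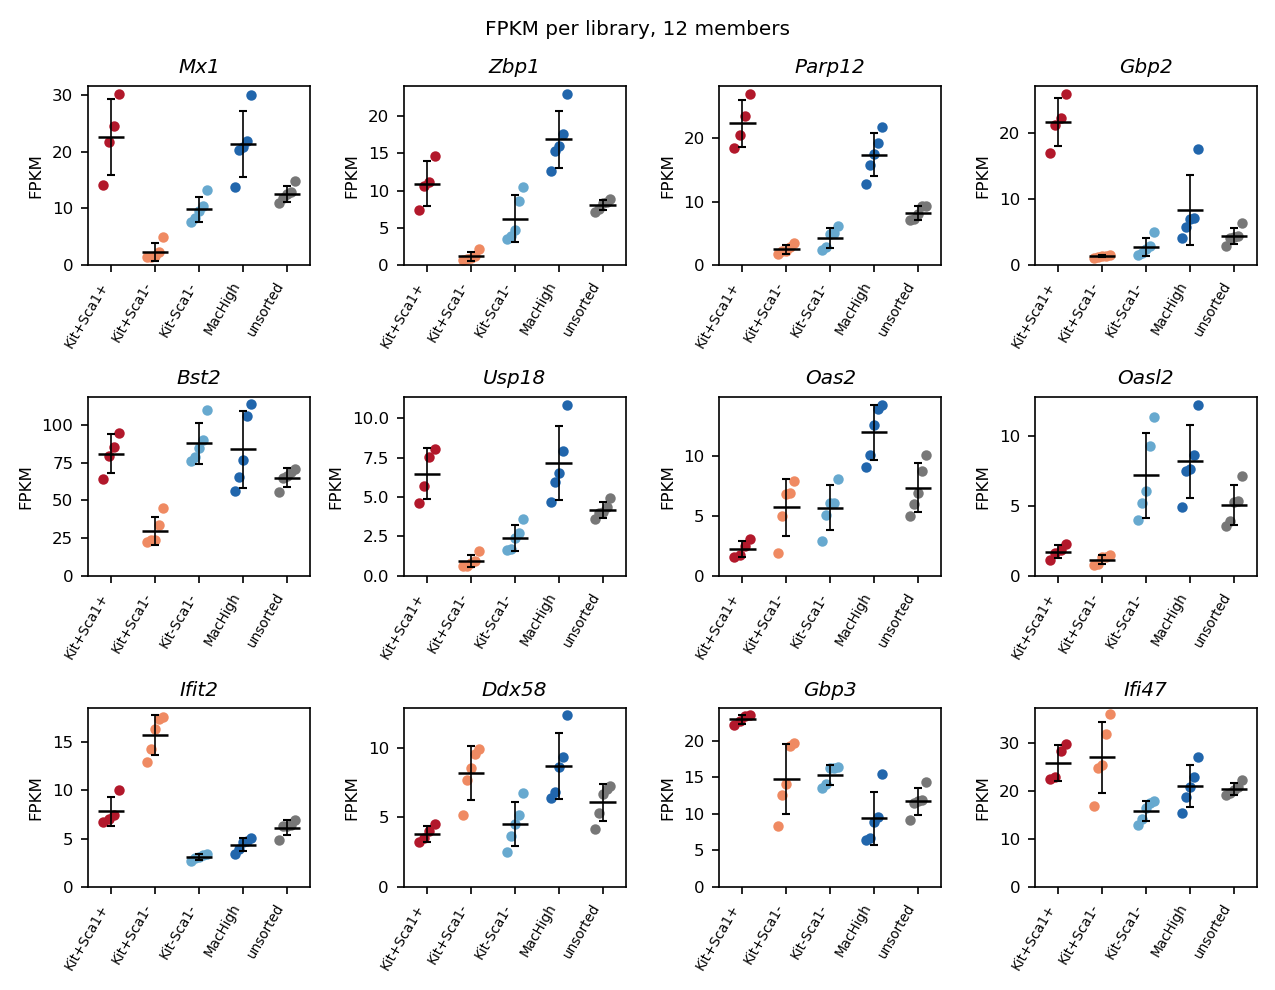
FPKM per library of 12 members in the 5 groups, each point 1 library, with the group mean (line) and SD (whiskers), the MacLow part of the names left out, and with each vertical axis starting at 0. Mx1, Zbp1, Parp12 and Gbp2 are low in Kit+Sca1- cells, Ifit2 is highest there, Oas2 is low in Kit+Sca1+ cells, and Oasl2 is low in both Kit+ groups.

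Of the genes that block viral growth in other ways, Bst2 (chromosome 8, 71534255 to 71537472), which encodes tetherin, a membrane protein that holds budding virus, had the highest level of all 39 members. Bst2 had 64, 95, 85.2 and 79.7 FPKM in the MacLowKit+Sca1+ libraries and 23.5, 22.5, 44.7, 23.9 and 34 in the MacLowKit+Sca1- libraries. It had 76.2, 90.1, 78.5, 109.9 and 84.8 FPKM in MacLowKit-Sca1-, 56.5, 114, 76.8, 65.4 and 106 in MacHigh and 71.1, 68.8, 64.8, 55.3 and 65.9 in unsorted libraries. All MacLowKit+Sca1- libraries lay below all other libraries, and the ranges of the other sorted groups overlapped one another. MacLowKit+Sca1+ cells lay above MacLowKit+Sca1- cells (log2 difference 1.45 ± 0.20, limma adjusted p = 1.78e-06), and MacLowKit+Sca1- cells lay below MacHigh cells (log2 difference -1.46 ± 0.19, limma adjusted p = 4.57e-07). Rsad2, which encodes viperin, an enzyme that makes a nucleotide ending viral RNA chains, had 0.88 to 2.8 FPKM in MacLowKit+Sca1+, 0.199 to 0.625 in MacLowKit+Sca1-, 1.71 to 6.25 in MacLowKit-Sca1- and 2.15 to 4.08 in MacHigh libraries. For Rsad2 the level in MacLowKit+Sca1+ cells was not called against MacLowKit-Sca1- cells without a block (adjusted p = 0.0976 by limma) and was called lower with the prefix block (-0.85, limma adjusted p = 0.00333). Rtp4, a chaperone of receptors in the Golgi, had 1.03 to 4.13 FPKM in MacLowKit+Sca1+, 0.137 to 0.68 in MacLowKit+Sca1-, 1.32 to 5 in MacLowKit-Sca1-, 3.62 to 8.97 in MacHigh and 1.79 to 4.77 in unsorted libraries, and was also called lower in MacLowKit+Sca1+ than in MacLowKit-Sca1- cells only with the block (-0.52, limma adjusted p = 0.0206, against 0.247 without it).

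Eif2ak2, which encodes the RNA-activated kinase PKR, was nearly level, at 14.8 ± 2.35 FPKM in MacLowKit+Sca1+ (SD, n = 4) and 14.8 ± 2.41, 11.8 ± 2.45, 15.1 ± 2.44 and 13.1 ± 1.31 FPKM in MacLowKit+Sca1-, MacLowKit-Sca1-, MacHigh and unsorted cells (SD, n = 5 each). With the prefix block it was called higher in both Kit+ groups than in MacLowKit-Sca1- cells (0.26, limma adjusted p = 0.00988 for MacLowKit+Sca1+; 0.35, limma adjusted p = 0.000875 for MacLowKit+Sca1-; 0.0771 and 0.0513 without the block). Samd9l, which holds back cell growth and translation, had 17.1 to 38.7 FPKM in MacLowKit+Sca1+, 17.3 to 54.5 in MacLowKit+Sca1-, 13.5 to 31.9 in MacLowKit-Sca1-, 26.5 to 35.6 in MacHigh and 17.4 to 32.5 in unsorted libraries, and its MacLowKit+Sca1+ level was called lower than that of MacLowKit+Sca1- cells only with the block (-0.73, limma adjusted p = 0.0192, against 0.0983 without it). Isg20, a 3′ to 5′ exonuclease of single-stranded RNA, lay between 2.58 and 8.94 FPKM in all libraries of the sorted groups. Ifi44, a member that did not pass the filter, had 0.976, 4.73, 3.3 and 1.45 FPKM in MacLowKit+Sca1+ libraries, against at most 0.0426 in MacLowKit+Sca1-, 0.311 in MacLowKit-Sca1-, 0.255 in MacHigh and 0.764 in unsorted libraries. It was thus highest in all 4 MacLowKit+Sca1+ libraries, without a test.

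The Mx genes encode GTPases that trap viral nucleocapsids, with Mx1 acting in the mouse nucleus and Mx2 in the cytoplasm. Both were higher in MacLowKit+Sca1+ than in MacLowKit+Sca1- and MacLowKit-Sca1- cells, and both were lower in MacLowKit+Sca1- and in MacLowKit-Sca1- than in MacHigh cells. Mx1 had 14.1, 24.6, 30.1 and 21.7 FPKM in the MacLowKit+Sca1+ libraries and 1.48, 1.32, 1.37, 2.28 and 4.88 in the MacLowKit+Sca1- libraries. It had 7.62, 8.26, 10.5, 9.52 and 13.2 FPKM in MacLowKit-Sca1-, 13.7, 29.9, 20.3, 20.9 and 22 in MacHigh and 10.9, 13, 14.8, 12.4 and 11.7 in unsorted libraries. For Mx1 (chromosome 16, 97447035 to 97462906) the MacLowKit+Sca1+ and MacHigh ranges overlapped over most of their length, all MacLowKit-Sca1- libraries lay below both, and all MacLowKit+Sca1- libraries lay below those. The difference was 2.91 ± 0.25, limma adjusted p = 1.44e-09 for MacLowKit+Sca1+ against MacLowKit+Sca1-, 1.10 ± 0.25, limma adjusted p = 0.000863 for MacLowKit+Sca1+ against MacLowKit-Sca1-, and 0.07 ± 0.25, limma adjusted p = 0.835 for MacLowKit+Sca1+ against MacHigh cells. Mx2 had 1.79 to 3.79 FPKM in MacLowKit+Sca1+, 0.126 to 0.578 in MacLowKit+Sca1-, 0.766 to 1.75 in MacLowKit-Sca1-, 1.81 to 4.71 in MacHigh and 1.44 to 1.87 in unsorted libraries, so that the MacLowKit+Sca1+ and MacHigh ranges overlapped here too and lay above those of MacLowKit+Sca1- and MacLowKit-Sca1-.

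Isg15 encodes a ubiquitin-like protein that is attached to other proteins, and Usp18 (chromosome 6, 121245906 to 121270917) encodes the protease that takes it off and also damps signalling at the interferon receptor. Usp18 had 4.61, 7.54, 8.08 and 5.69 FPKM in the MacLowKit+Sca1+ libraries and 0.816, 0.626, 0.639, 0.953 and 1.55 in the MacLowKit+Sca1- libraries. It had 1.67, 3.6, 2.74, 1.69 and 2.38 FPKM in MacLowKit-Sca1-, 4.69, 10.8, 5.95, 6.54 and 7.94 in MacHigh and 4.95, 4.37, 3.96, 4.03 and 3.63 in unsorted libraries. As with Mx1, MacLowKit+Sca1+ and MacHigh libraries overlapped and lay above all MacLowKit-Sca1- and all MacLowKit+Sca1- libraries. The Usp18 difference was 1.96 ± 0.20, limma adjusted p = 1.93e-08 for MacLowKit+Sca1+ against MacLowKit+Sca1-, 1.14 ± 0.20, limma adjusted p = 5.79e-05 for MacLowKit+Sca1+ against MacLowKit-Sca1-, and -2.07 ± 0.18, limma adjusted p = 1.74e-09 for MacLowKit+Sca1- against MacHigh cells. Isg15 had 1.99 to 7.63 FPKM in MacLowKit+Sca1+, 0.32 to 1.32 in MacLowKit+Sca1-, 1.13 to 3.83 in MacLowKit-Sca1-, 2.35 to 9.8 in MacHigh and 2.99 to 7.64 in unsorted libraries. It was higher in MacLowKit+Sca1+ than in MacLowKit+Sca1- cells (1.71 ± 0.34, limma adjusted p = 0.000199). Against MacLowKit-Sca1- cells it was called by a narrow margin (0.85 ± 0.34, limma adjusted p = 0.0486), a call that 22 of 33 alternative fits did not keep, 16 of them leaving out 1 library, while the log2 difference stayed between 0.61 and 1.12 with 1 library left out.

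The PARP genes, whose products attach ADP-ribose to proteins or bind it, were higher in MacLowKit+Sca1+ than in MacLowKit+Sca1- cells and lower in MacLowKit+Sca1- than in MacHigh cells in 3 of 3 cases each. Parp12 (chromosome 6, 39086412 to 39118349) encodes a mono-ADP-ribosyl transferase of the Golgi. Parp12 had 20.4, 27, 23.4 and 18.5 FPKM in the MacLowKit+Sca1+ libraries and 2.13, 2.23, 1.72, 2.75 and 3.49 in the MacLowKit+Sca1- libraries. It had 2.84, 4.99, 6.05, 2.32 and 4.82 FPKM in MacLowKit-Sca1-, 15.8, 21.8, 12.7, 19.2 and 17.4 in MacHigh and 9.34, 8.07, 7.31, 9.37 and 7.1 in unsorted libraries. The MacLowKit+Sca1+ and MacHigh ranges overlapped, and all their libraries lay above every MacLowKit+Sca1- and MacLowKit-Sca1- library. The difference was 2.76 ± 0.19, limma adjusted p = 8.57e-11 for MacLowKit+Sca1+ against MacLowKit+Sca1-, 2.21 ± 0.19, limma adjusted p = 3.74e-09 for MacLowKit+Sca1+ against MacLowKit-Sca1-, and -1.86 ± 0.18, limma adjusted p = 6.37e-08 for MacLowKit-Sca1- against MacHigh cells. Parp9 (chromosome 16, 35938470 to 35972621), which works with the ubiquitin ligase Dtx3l, had smaller differences. Parp9 had 22.2, 21.5, 19 and 15.3 FPKM in the MacLowKit+Sca1+ libraries and 9.56, 9.1, 9.07, 9.15 and 10.5 in the MacLowKit+Sca1- libraries. It had 12.1, 11.3, 13.8, 10.2 and 11.6 FPKM in MacLowKit-Sca1-, 17.9, 19.9, 17.6, 15.6 and 18.4 in MacHigh and 12.9, 13.4, 14.7, 11.9 and 12.7 in unsorted libraries. Again no MacLowKit+Sca1+ or MacHigh library overlapped with a MacLowKit+Sca1- or MacLowKit-Sca1- library (0.96 ± 0.10, limma adjusted p = 2.49e-08 for MacLowKit+Sca1+ against MacLowKit+Sca1- cells, and 0.67 ± 0.10, limma adjusted p = 6.7e-06 against MacLowKit-Sca1-).

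Parp14 (chromosome 16, 35831892 to 35871518), a large PARP with macrodomains, was highest in MacHigh cells. Parp14 had 11.5, 14.6, 13 and 8.28 FPKM in the MacLowKit+Sca1+ libraries and 2.77, 3.04, 2.6, 3.04 and 3.04 in the MacLowKit+Sca1- libraries. It had 6.01, 7.65, 12.4, 4.81 and 8.01 FPKM in MacLowKit-Sca1-, 16.2, 31.1, 18.8, 16.3 and 20.8 in MacHigh and 11, 13, 11.1, 8.84 and 8.57 in unsorted libraries. Each MacHigh library lay above each MacLowKit+Sca1+ library, and each of these above each MacLowKit+Sca1- library. The difference was -0.74 ± 0.20, limma adjusted p = 0.00487 for MacLowKit+Sca1+ against MacHigh, 1.70 ± 0.20, limma adjusted p = 2.81e-07 for MacLowKit+Sca1+ against MacLowKit+Sca1-, and -2.43 ± 0.19, limma adjusted p = 2.39e-10 for MacLowKit+Sca1- against MacHigh cells.

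**Figure D4:**
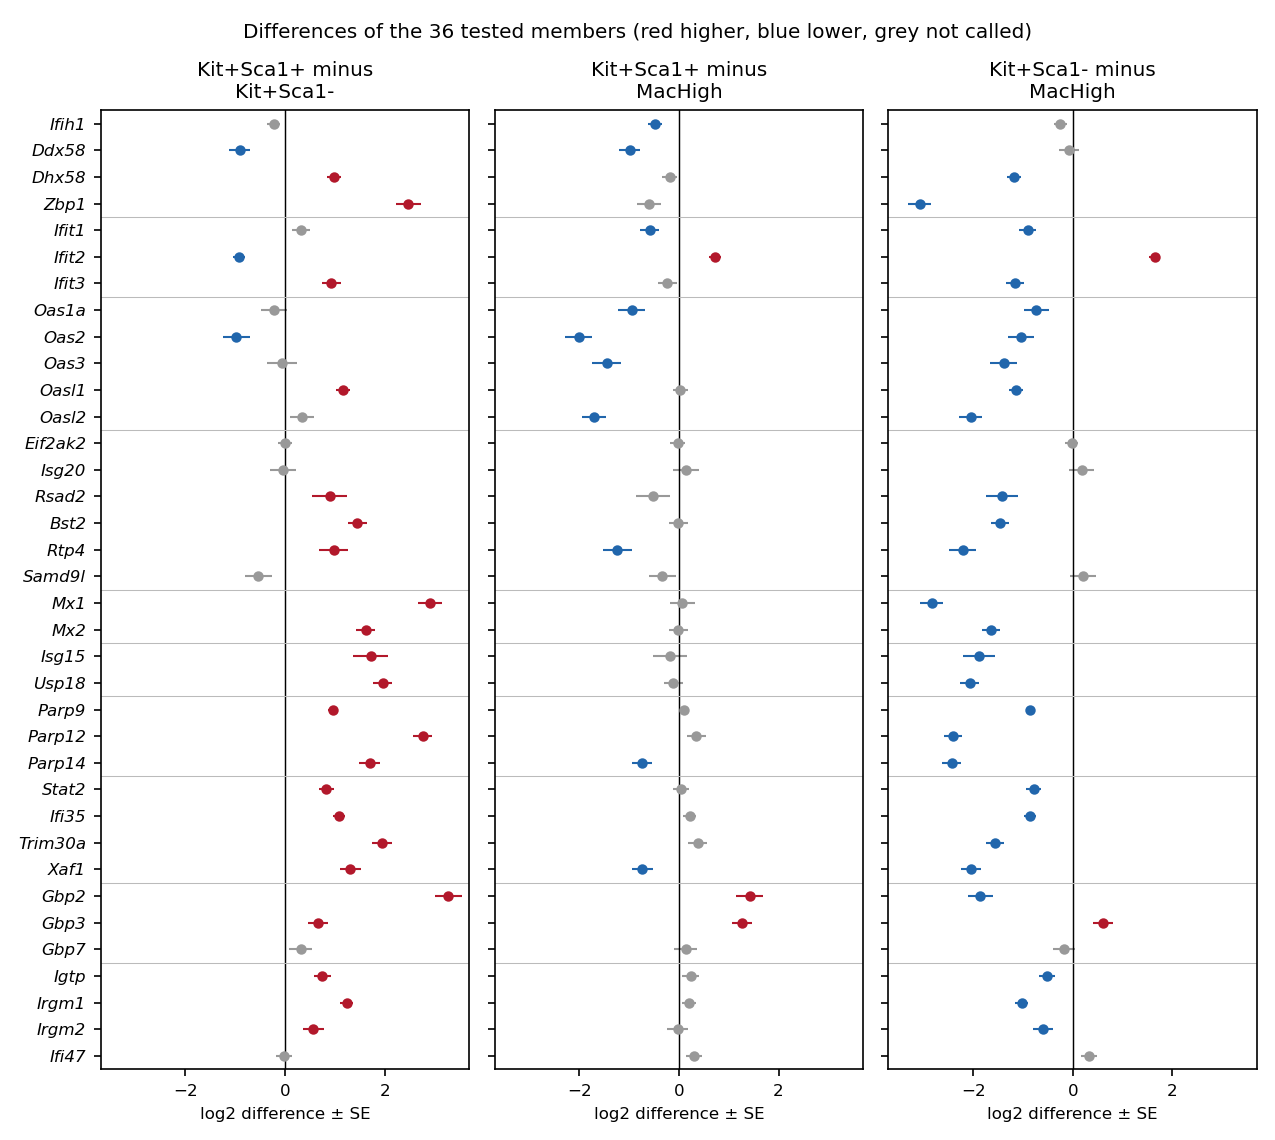
log2 difference ± SE of the 36 tested members in 3 comparisons of sorted groups (the first group named minus the second, the MacLow part of the names left out), on the log2(FPKM + 1) scale (limma; red higher, blue lower, grey not called at adjusted p under 0.05). Gbp2 and Mx1 reach the right of the panel of Kit+Sca1+ minus Kit+Sca1-, and Ifit2 and Ddx58 lie on its left.

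Among signalling genes and regulators, Trim30a (chromosome 7, 104409025 to 104465193), a mouse TRIM protein that restrains inflammatory signalling, and Ifi35 (chromosome 11, 101448412 to 101458701), a partner of Nmi, were among the highest members. Trim30a had 31, 47.3, 49.7 and 39.9 FPKM in the MacLowKit+Sca1+ libraries and 9, 8.67, 10.4, 9.87 and 12.3 in the MacLowKit+Sca1- libraries. It had 11.5, 14.8, 22.1, 13.6 and 16.8 FPKM in MacLowKit-Sca1-, 23, 46.1, 31.2, 26.3 and 36.1 in MacHigh and 19.8, 24.6, 22.1, 14.3 and 19.7 in unsorted libraries. The MacLowKit+Sca1+ and MacHigh ranges overlapped and lay above every MacLowKit+Sca1- and MacLowKit-Sca1- library, with 1.94 ± 0.19, limma adjusted p = 1.61e-08 for MacLowKit+Sca1+ against MacLowKit+Sca1- and 1.37 ± 0.19, limma adjusted p = 4.35e-06 for MacLowKit+Sca1+ against MacLowKit-Sca1- cells. Ifi35 had 29.7, 46.2, 46.2 and 46 FPKM in the MacLowKit+Sca1+ libraries and 15.1, 17.5, 21.7, 18.8 and 23.1 in the MacLowKit+Sca1- libraries. It had 22.4, 26.2, 25.8, 25.4 and 26.5 FPKM in MacLowKit-Sca1-, 30.2, 42.3, 33.4, 33.8 and 39.3 in MacHigh and 29.9, 28.5, 26.7, 32.3 and 29.7 in unsorted libraries. For Ifi35 the MacLowKit+Sca1+ level exceeded that of MacLowKit+Sca1- cells (log2 difference 1.08 ± 0.13, limma adjusted p = 2.27e-07) and that of MacLowKit-Sca1- cells (0.69 ± 0.13, limma adjusted p = 0.000122), without overlap in either case. In MacLowKit+Sca1+ and in MacLowKit-Sca1- cells the prefix 11 library had the lowest Ifi35 value and stood apart from the rest of its group. Stat2, which acts with Irf9 in the complex that binds ISRE, had 28.3 ± 4.54 FPKM in MacLowKit+Sca1+ (SD, n = 4), and 15.6 ± 3.33 in MacLowKit+Sca1-, 14.8 ± 3.56 in MacLowKit-Sca1-, 27.4 ± 4.21 in MacHigh and 18.6 ± 1.87 in unsorted cells (SD, n = 5 each). Xaf1, which binds the caspase inhibitor XIAP, had 5.59 to 9.02 FPKM in MacLowKit+Sca1+, 1.64 to 2.45 in MacLowKit+Sca1-, 2.41 to 7.03 in MacLowKit-Sca1-, 8.02 to 15.3 in MacHigh and 5.07 to 7.43 in unsorted libraries. All 4 genes of this class were higher in MacLowKit+Sca1+ than in MacLowKit+Sca1- cells and lower in MacLowKit+Sca1- than in MacHigh cells. For MacLowKit+Sca1+ against MacLowKit-Sca1- cells Xaf1 was called higher only with the prefix block (limma adjusted p = 0.0483, against 0.0523 without it).

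Guanylate-binding proteins are large GTPases that coat vacuoles holding bacteria or parasites. Gbp2 (chromosome 3, 142620663 to 142638008) set MacLowKit+Sca1+ cells apart from all other groups. Gbp2 had 17.1, 21.3, 25.9 and 22.2 FPKM in the MacLowKit+Sca1+ libraries and 1.11, 1.48, 1.41, 1.36 and 1.23 in the MacLowKit+Sca1- libraries. It had 1.56, 2.35, 4.97, 1.79 and 2.86 FPKM in MacLowKit-Sca1-, 4.11, 17.6, 6.9, 5.72 and 7.13 in MacHigh and 4.39, 6.34, 4.29, 2.87 and 4.12 in unsorted libraries. All MacLowKit+Sca1+ libraries lay above every MacLowKit+Sca1-, MacLowKit-Sca1- and unsorted library, and the only MacHigh library that reached them was that of prefix 26. The difference was 3.28 ± 0.27, limma adjusted p = 1.1e-09 for MacLowKit+Sca1+ against MacLowKit+Sca1-, 2.66 ± 0.27, limma adjusted p = 4.13e-08 for MacLowKit+Sca1+ against MacLowKit-Sca1-, 1.42 ± 0.27, limma adjusted p = 0.000181 for MacLowKit+Sca1+ against MacHigh, and 2.08 ± 0.27, limma adjusted p = 2.65e-06 for MacLowKit+Sca1+ against unsorted cells. Between MacLowKit+Sca1- and MacLowKit-Sca1- cells Gbp2 was called with the prefix block (-0.56, limma adjusted p = 0.00984) and not without it (adjusted p = 0.0515).

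Gbp3 (chromosome 3, 142560016 to 142573213), on the same chromosome as Gbp2, was the one member with its lowest mean in MacHigh cells. Gbp3 had 22.2, 23.6, 23.4 and 22.8 FPKM in the MacLowKit+Sca1+ libraries and 14.1, 12.6, 19.7, 19.3 and 8.32 in the MacLowKit+Sca1- libraries. It had 16.4, 16.3, 16.3, 14.1 and 13.5 FPKM in MacLowKit-Sca1-, 6.76, 15.4, 9.52, 6.4 and 8.86 in MacHigh and 11.8, 14.4, 11.9, 9.15 and 11.5 in unsorted libraries. The 4 MacLowKit+Sca1+ libraries lay close together and above every other library. The difference was 1.27 ± 0.21, limma adjusted p = 2.62e-05 for MacLowKit+Sca1+ against MacHigh cells. Gbp7 had 3.92 to 10.1 FPKM in MacLowKit+Sca1+, 2.99 to 5.61 in MacLowKit+Sca1-, 3.51 to 6.52 in MacLowKit-Sca1-, 4.07 to 8.95 in MacHigh and 4.14 to 7.34 in unsorted libraries, and was called in no comparison of sorted groups. Gbp6 stayed at or below 0.242 FPKM in all libraries and did not pass the filter.

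The immunity-related GTPases of mice act on the same vacuoles, with Irgm1, Irgm2 and Igtp as the regulators that protect the cell's own membranes. Of the 4 tested, all were higher in MacLowKit+Sca1+ than in MacLowKit-Sca1- cells, and 3 were higher than in MacLowKit+Sca1- cells. Irgm1 had 30.3 ± 4.93 FPKM in MacLowKit+Sca1+ (SD, n = 4), and 12.2 ± 0.775 in MacLowKit+Sca1-, 11.3 ± 2.56 in MacLowKit-Sca1-, 26.3 ± 5.22 in MacHigh and 17.8 ± 1.85 in unsorted cells (SD, n = 5 each), with 1.23 ± 0.14, limma adjusted p = 1.1e-07 for MacLowKit+Sca1+ against MacLowKit+Sca1- cells. Igtp had 12.9 ± 1.57 FPKM in MacLowKit+Sca1+ (SD, n = 4), and 7.28 ± 1 in MacLowKit+Sca1-, 6.47 ± 1.63 in MacLowKit-Sca1-, 11 ± 2.78 in MacHigh and 11.4 ± 2.43 in unsorted cells (SD, n = 5 each). Irgm2 had 5.82 ± 1.22, 3.61 ± 0.807, 3.39 ± 1.43, 5.97 ± 1.57 and 5.82 ± 1.34 FPKM in the same order and with the same n. Ifi47 (chromosome 11, 49076587 to 49096987) departed from its class. Ifi47 had 30, 28.4, 22.6 and 22.9 FPKM in the MacLowKit+Sca1+ libraries and 25.4, 24.9, 31.9, 36.2 and 16.9 in the MacLowKit+Sca1- libraries. It had 13, 18, 17.6, 16.5 and 14.2 FPKM in MacLowKit-Sca1-, 15.4, 27.2, 18.8, 20.8 and 23 in MacHigh and 20.2, 20.8, 19.6, 22.4 and 19.1 in unsorted libraries. The MacLowKit+Sca1+ and MacLowKit+Sca1- ranges overlapped (log2 difference -0.02 ± 0.17, limma adjusted p = 0.919), and all MacLowKit+Sca1+ libraries lay above all MacLowKit-Sca1- libraries (0.68 ± 0.17, limma adjusted p = 0.00218). Iigp1, below the filter, had 1.31, 1.8, 0.991 and 0.435 FPKM in MacLowKit+Sca1+ libraries, was listed at 0.001 in every MacLowKit+Sca1- library, and reached at most 0.0243 in MacLowKit-Sca1-, 0.275 in MacHigh and 0.306 in unsorted libraries.

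Against unsorted cells, 12 of 36 members were higher in MacLowKit+Sca1+ cells, 5 lower and 19 not called (median 0.23), where 33% of all rows were called, 17.2% higher and 15.7% lower. In MacLowKit+Sca1- cells 1 was higher, 25 were lower and 10 not called (median -0.59; 47.4% of all rows called, 23.6% higher and 23.8% lower), the 1 higher gene being Ifit2 (1.22 ± 0.11, limma adjusted p = 8.78e-09). In MacLowKit-Sca1- cells 0 were higher, 10 lower and 26 not called (median -0.34; 14.6% of all rows called, 5.67% higher and 8.91% lower). The count of 10 fell to 6 when either unsorted replicate 1 (prefix 12) or MacLowKit-Sca1- replicate 4 (prefix L) was left out, and was 15 with the prefix block. In MacHigh cells 19 were higher, 3 lower and 14 not called (median 0.43; 39.4% of all rows called, 21.3% higher and 18.2% lower). The MacHigh counts were 7 higher and 3 lower when all libraries were scaled to the same FPKM sum.

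Isg20, Rsad2 and Isg15 had their highest mean of all groups in unsorted cells, Isg15 by a small margin over MacHigh cells. Isg20 had 25.7, 20.8, 12.8, 38.6 and 13.3 FPKM in unsorted libraries, each above every sorted library, and was lower in MacLowKit+Sca1+ cells (log2 difference -1.51 ± 0.26, limma adjusted p = 0.000104) and in MacHigh cells (-1.65 ± 0.25, limma adjusted p = 3.95e-05) than in unsorted cells. Rsad2 had 2.99 to 18.6 FPKM in unsorted libraries and was lower than there in MacLowKit+Sca1+ cells (-1.87 ± 0.35, limma adjusted p = 0.000214) and in MacLowKit+Sca1- cells (-2.76 ± 0.33, limma adjusted p = 4.56e-07). Genes of erythroid cells, 8 in the list and all tested, summed to 68.4 to 147 FPKM in MacLowKit+Sca1+, 52.5 to 98.3 in MacLowKit+Sca1-, 31.3 to 77.1 in MacLowKit-Sca1-, 18.7 to 94.3 in MacHigh and 370.2 to 1931 in unsorted libraries, and their part in the Isg20 and Rsad2 levels was not tested.

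Of the ligands, 10 of 12 listed interferon genes were in the table and none passed the filter. Their summed level stayed at or below 1.29 FPKM in every library. Ifng, which encodes interferon gamma, had 0.0703 to 0.391 FPKM in MacLowKit+Sca1+, 0.0446 to 0.0945 in MacLowKit+Sca1-, 0.26 to 1.28 in MacLowKit-Sca1-, 0.001 to 0.0597 in MacHigh and 0.0639 to 0.221 in unsorted libraries. Ifna1 and Ifne were listed at 0.001 in all libraries, and Ifnb1 reached 0.112 FPKM at most. Interferon made by other cells was not measured. All 5 receptor genes tested were higher in MacLowKit+Sca1+ than in MacLowKit+Sca1- cells, with Ifnar1 at 21.1 ± 1.62 FPKM in MacLowKit+Sca1+ (SD, n = 4) and 11.2 ± 1.24 in MacLowKit+Sca1- cells (SD, n = 5; 0.86 ± 0.09, limma adjusted p = 7.76e-08), and Ifnar2 at 0.39, Ifngr1 at 0.44, Ifngr2 at 0.70 and Il10rb at 0.45 log2. Against MacHigh cells 4 of the 5 were lower in MacLowKit+Sca1+ and in MacLowKit+Sca1- cells alike, the exception in both being Ifngr1 (0.23, limma adjusted p = 0.238, and -0.22, limma adjusted p = 0.201). Of all rows 26.8% were higher in MacLowKit+Sca1+ than in MacLowKit+Sca1- cells. Against MacHigh cells 22.4% of all rows were lower in MacLowKit+Sca1+ and 30.3% in MacLowKit+Sca1- cells.

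Of the kinases and STAT proteins, Jak2 and Tyk2 were higher in MacLowKit+Sca1+ than in MacLowKit+Sca1- cells (1.05 ± 0.10, limma adjusted p = 1.62e-08 and 0.82 ± 0.11, limma adjusted p = 2.36e-06), while Jak1 (-0.14, limma adjusted p = 0.154) and Stat3 (-0.22, limma adjusted p = 0.0833) were not called. The interferon regulatory factors, transcription factors that induce interferon genes or carry the response on, were higher in MacLowKit+Sca1+ than in MacLowKit+Sca1- cells in 7 of 7 cases and lower in MacLowKit+Sca1- than in MacHigh cells in 7 of 7. Of all rows 26.8% were higher in the first of these comparisons and 30.3% lower in the second. Irf7 averaged 72.5 ± 25.2 FPKM in MacLowKit+Sca1+ (SD, n = 4) and 8.13 ± 4.21, 17.3 ± 5.25, 40.2 ± 9.75 and 25.1 ± 1.85 FPKM in MacLowKit+Sca1-, MacLowKit-Sca1-, MacHigh and unsorted cells (SD, n = 5 each), and was higher in MacLowKit+Sca1+ than in MacLowKit+Sca1- (3.03 ± 0.27, limma adjusted p = 3.16e-09) and than in MacHigh cells (0.79 ± 0.27, limma adjusted p = 0.0198). Irf8, a factor of dendritic cells and monocytes, averaged 648 FPKM in MacLowKit+Sca1+, 73 in MacLowKit+Sca1-, 225 in MacLowKit-Sca1- and 214 in MacHigh cells. Irf9, the DNA-binding part of the complex with Stat2, was higher in MacLowKit+Sca1+ than in MacLowKit+Sca1- cells (1.12 ± 0.17, limma adjusted p = 5.51e-06).

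Among 8 negative regulators, 3 higher and 3 lower were found in MacLowKit+Sca1+ against MacLowKit+Sca1- cells, and 2 higher and 5 lower in MacLowKit+Sca1- against MacHigh cells; Socs1, the feedback inhibitor of the JAK kinases, was higher in MacLowKit+Sca1+ than in MacLowKit+Sca1- cells (1.30 ± 0.19, limma adjusted p = 5.77e-06). For MacLowKit+Sca1+ against MacLowKit+Sca1- cells 55.2% of all rows were called (26.8% higher, 28.5% lower). For MacLowKit+Sca1- against MacHigh cells 62.8% were called (32.5% higher, 30.3% lower). Of 14 sensors and adaptors upstream of interferon, 6 higher and 2 lower were found in MacLowKit+Sca1+ against MacLowKit+Sca1- cells. The share called in either direction was near that of all rows, with a median log2 difference of 0.46 against -0.02 over all rows. In MacLowKit+Sca1- against MacHigh cells 2 of the 14 sensors and adaptors were higher and 12 lower. The largest difference of these was in Tlr3, an endosomal receptor of double-stranded RNA, which averaged 98.8 ± 31 FPKM in MacLowKit+Sca1+ (SD, n = 4) and 5.4 ± 4.35 in MacLowKit+Sca1- cells (SD, n = 5; 4.12 ± 0.35, limma adjusted p = 1.32e-09). Tlr3 is also on the list of cross-presenting dendritic cells. A further 36 interferon-induced genes that are not among the members were listed, of which 31 were tested. In MacLowKit+Sca1+ cells 23 higher and 3 lower were found against MacLowKit+Sca1-, 19 higher and 4 lower against MacLowKit-Sca1-, and 7 higher and 11 lower against MacHigh cells, with medians of 1.16, 0.49 and 0.05. Of all rows 26.8%, 21.8% and 23.6% were higher and 28.5%, 23.3% and 22.4% lower in the same order. In MacLowKit+Sca1- cells 3 higher and 23 lower were found against MacHigh, with a median of -0.97. The highest positive difference of MacLowKit+Sca1+ over MacLowKit+Sca1- cells in that list was in Cxcl9, a chemokine gene induced by interferon gamma, with 29.5 to 50.8 FPKM in MacLowKit+Sca1+ and 0.472 to 1.6 in MacLowKit+Sca1- libraries (4.26 ± 0.22, limma adjusted p = 7.59e-13). Ifitm3, which blocks the entry of viruses, had 81.2 to 108 FPKM in MacLowKit+Sca1+, 36.6 to 168 in MacLowKit+Sca1-, 193 to 399 in MacLowKit-Sca1- and 666 to 951 in MacHigh libraries, and was lower in MacLowKit+Sca1+ than in MacHigh cells (-3.12 ± 0.28, limma adjusted p = 6.31e-09). The counts of this list include Ly6a, which was called higher in MacLowKit+Sca1+ than in each other sorted group. Its product set the Sca-1 gate, so its difference is not a finding.

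Markers of other cells of the spleen moved between the same groups. Genes of cross-presenting dendritic cells summed to 631 to 1093 FPKM in MacLowKit+Sca1+, 52.6 to 148 in MacLowKit+Sca1-, 58.3 to 98.1 in MacLowKit-Sca1-, 179 to 258 in MacHigh and 141 to 188 in unsorted libraries, and 8 of 8 were higher in MacLowKit+Sca1+ than in each other sorted group. The defining genes Xcr1 and Clec9a had 53.6 to 156 and 46.1 to 165 FPKM in MacLowKit+Sca1+ libraries, and at most 9.74 and 20.7 FPKM in MacLowKit+Sca1- libraries. Genes of red pulp macrophages, the iron-recycling macrophages of the spleen, summed to 765 to 1881 FPKM in MacLowKit+Sca1+, 69.8 to 117 in MacLowKit+Sca1-, 25.3 to 68 in MacLowKit-Sca1-, 298 to 578 in MacHigh and 252 to 336 in unsorted libraries. Of these, 11 of 11 were higher in MacLowKit+Sca1+ than in MacLowKit+Sca1- and MacLowKit-Sca1- cells, 7 were higher than in MacHigh cells, and 11 of 11 were lower in MacLowKit-Sca1- than in MacHigh cells. Their defining genes Spic and Vcam1 had 37.9 to 67.6 and 104 to 319 FPKM in MacLowKit+Sca1+, and 4.62 to 13.6 and 2.96 to 11.6 FPKM in MacHigh libraries. No gene of either list was at 0.001 throughout a group. The part of these cells in the member levels of MacLowKit+Sca1+ and MacHigh cells was not tested.

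Genes of monocytes summed to 485 to 907 FPKM in MacLowKit+Sca1+, 969 to 1609 in MacLowKit+Sca1-, 1627 to 2170.0 in MacLowKit-Sca1-, 2281 to 2540.0 in MacHigh and 1360.0 to 1955 in unsorted libraries. Of 10, all were lower in MacLowKit+Sca1+ than in MacHigh cells and 9 were lower in MacLowKit+Sca1- than in MacHigh cells. Between MacLowKit+Sca1+ and MacLowKit+Sca1- cells 6 of the 10 were higher in MacLowKit+Sca1+ and 2 lower (median 0.75), although the sum was lower, with Ly6c2, the gene of a monocyte surface protein, averaging 387 FPKM in MacLowKit+Sca1+ and 1159 in MacLowKit+Sca1- cells. Further, 9 of 10 were lower in MacLowKit+Sca1- than in MacLowKit-Sca1- cells, 8 were lower in MacLowKit-Sca1- than in MacHigh cells, and 8 were lower in MacLowKit+Sca1+ than in MacLowKit-Sca1- cells. Ccr2, the chemokine receptor of monocytes, had 15.4 to 23.5 FPKM in MacLowKit+Sca1+, 10.6 to 17.4 in MacLowKit+Sca1-, 80.7 to 108 in MacLowKit-Sca1- and 179 to 250.3 in MacHigh libraries. Neutrophil genes summed to 2582 to 8508 FPKM in MacLowKit+Sca1+, 6312 to 40600.0 in MacLowKit+Sca1-, 5148 to 15490.0 in MacLowKit-Sca1-, 6326 to 19860.0 in MacHigh and 11630.0 to 19620.0 in unsorted libraries. Among them Ngp was listed at 0.001 in every MacLowKit+Sca1- library and reached 8392 FPKM in MacHigh libraries, so a listed 0.001 need not mean that a transcript was absent. Neutrophil genes were lower in MacLowKit+Sca1+ than in MacLowKit+Sca1- cells in 8 of 9 cases and NK cell genes higher in 8 of 9, with NK sums of 40 to 115 FPKM in MacLowKit+Sca1+, 8.42 to 24.8 in MacLowKit+Sca1-, 46.6 to 188 in MacLowKit-Sca1-, 29.6 to 59 in MacHigh and 42.2 to 59.9 in unsorted libraries. Genes of plasmacytoid dendritic cells, a known source of type I interferon, summed to 26.4 to 46 FPKM in MacLowKit+Sca1+, 15.6 to 22.6 in MacLowKit+Sca1-, 24.9 to 39.7 in MacLowKit-Sca1-, 27.4 to 37.1 in MacHigh and 26.1 to 30.3 in unsorted libraries. Of the 7 tested, 5 were higher and 1 lower in MacLowKit+Sca1+ than in MacLowKit+Sca1- cells (median 1.11), with Tcf4, a transcription factor of these cells, averaging 12.2 FPKM in MacLowKit+Sca1+ and 3.28 in MacLowKit+Sca1- cells. Siglech, a surface marker of these cells, stayed at or below 1.69 FPKM in all libraries. T cell genes summed to 27.6 to 55.2 FPKM in MacLowKit+Sca1+ and 7.86 to 29.2 in MacLowKit+Sca1- libraries, with 4 of 6 tested higher and 1 lower. Much of the MacLowKit+Sca1+ sum was Cd8a, which averaged 27.4 FPKM there and 0.786 in MacLowKit+Sca1- cells. The lower gene was Cd3d (1.67 and 10.9 FPKM), and Cd3e was listed at 0.001 in every library of both groups, so this sum does not speak for T cells as such. B cell genes summed to 19.6 to 31.8 and 18.8 to 29.5 FPKM, with 1 of 3 tested higher. The part of these lists in the member levels was not tested.

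Within groups the member levels moved in part with the sample name prefix, though not for prefix R. Prefix 12 is absent from MacLowKit+Sca1- and MacHigh cells, and prefixes L and N are absent from MacLowKit+Sca1+ cells. Apart from MacLowKit+Sca1- against MacHigh, the comparisons without a block are thus not balanced for prefix. The mean of the 36 members lay above the mean of its group in all 5 prefix 26 libraries (by 0.03 to 0.45 log2, mean 0.22) and in all 3 prefix 12 libraries (0.17 to 0.26, mean 0.20). It lay below in 3 of 4 prefix 11 libraries (mean -0.17) and in all 4 prefix L libraries (-0.35 to -0.01, mean -0.15). The prefix N libraries also lay below (-0.12 to -0.025, mean -0.083), and the prefix R libraries lay on both sides (-0.207 to 0.16, mean -0.041). In MacHigh cells the prefix 26 library had the highest value of its group in 33 of 36 members, where 19.98% of all rows tested were highest in that library, and it lay above the mean of the others in 36 of 36, with a median difference of 0.60 (-0.02 over all rows). In MacLowKit-Sca1- cells the prefix 26 library lay above the mean of the others in 33 of 36 members, with a median of 0.52 (-0.04 over all rows). In MacLowKit+Sca1- cells it did so in 20 of 36, with a median of 0.03. Relative depth was 0.897 in the MacHigh and 1.07 in the MacLowKit-Sca1- library of prefix 26. It ran from 0.854 to 1.18 over the libraries of prefixes 11, 12, 26 and N, 1.51 to 1.78 in those of prefix L and 0.797 to 1.95 in those of prefix R. The part of depth in the member levels was not tested. Without the prefix 26 library, MacHigh cells exceeded unsorted cells in 12 members and lay below them in 4, and MacLowKit+Sca1- against MacHigh gave 3 higher and 25 lower. Differences among groups made up a median of 78.6% of the variance of a member and the prefix 10.95%, against 66.8% and 15.98% over all rows tested.

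**Figure D5:**
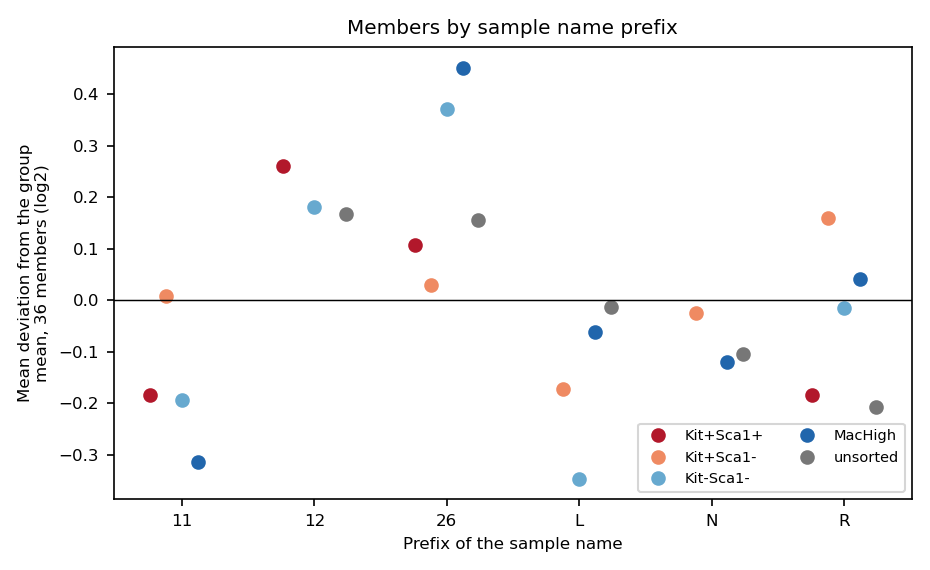
Mean deviation of the 36 tested members from their group mean (log2) in each library, by sample name prefix, with 1 point per library coloured by group (the MacLow part of the names left out). All points of prefixes 26 and 12 lie above 0 and all points of prefix L below it.

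Across the 24 libraries the members were unequally alike. The Pearson correlation of a member with the mean of the standardized log2 values of the other members had a median of 0.78, was over 0.5 in 25 of 36, and was highest for Ifit3 (0.942), Usp18 (0.930) and Parp14 (0.928). It was below 0 for Gbp3 (-0.128) and Ifit2 (-0.357), and low for Ifi47 (0.069) and Samd9l (0.127). These libraries share groups, so the values describe the pattern and carry no test. With the group means taken out, the median was 0.756, and Ddx58, at 0.240 over all libraries, reached 0.854 within groups, while Ifit2 reached 0.318. Of the genes that are not members, those most like the mean of the members over the 24 libraries included Pdlim4 (0.931), Wdr81 (0.931), Slfn5 (0.929), Abcg3 (0.928), Tgfbr2 (0.923), 9830001H06Rik (0.918), Irf9 (0.916), Kctd12b (0.914) and Siglec1 (0.912). Slfn5 averaged 35.5 FPKM in MacLowKit+Sca1+, 2.88 in MacLowKit+Sca1-, 6.89 in MacLowKit-Sca1-, 32.8 in MacHigh and 14.6 in unsorted cells, and Siglec1 averaged 9.62, 0.11, 0.279, 11.5 and 4.64 FPKM in the same order.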

How the data were processed

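RNA-seq libraries of 5 groups (24 libraries) were analysed. The authors deposited 1 table of FPKM values, with no read counts used here. The tools behind them were TopHat2 2.0.4 and Cuffdiff, and the build mm10, per the submitters' processing notes; the annotation and the normalization between libraries are not given in the sources used here. The table holds no 0: 206317 values stand at 0.001, and 216 lie below it.

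Values were taken as log2(FPKM + 1). Rows with at least 1 FPKM in at least 4 libraries (11599 of 23361) entered 1 linear model over all 5 groups in limma 3.58.1 (R 4.3.3, empirical Bayes with an intensity trend), and p-values were adjusted by Benjamini-Hochberg over all rows tested, with calls at an adjusted p under 0.05. The fold changes on this scale understate the change of low genes. The fit was tested on simulated data with 200 changed rows. Python 3.11.15, pandas 2.3.3, numpy 2.4.6 and matplotlib 3.10.9 were used for the descriptions and figures. Members were matched by symbol, and promoter sequences came from RefSeq entries of GRCm38.p6.

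The model had no replicate block; a block on the sample name prefix was an alternative. The prefix was taken to pair the libraries where every same-prefix correlation of deviations from the group means was over 0.1, which held in 7 of 10 comparisons. It did not hold for MacLowKit+Sca1+ against MacHigh, MacLowKit+Sca1- against MacHigh and MacLowKit+Sca1- against unsorted cells. Where it held, blocked values are given for members whose call they change between sorted groups. Against unsorted cells they are given only as counts. Over all groups 34 of 38 same-prefix pairs were over 0.1 (mean 0.24), against 28 of 192 other pairs (mean -0.05).

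The members and lists were chosen with earlier results of these data known. All 39 members are named. Per-library values are given for 18 of them, those with the highest mean FPKM in their role class and those among the 3 highest and 3 lowest called differences of a comparison of sorted groups, leaving out members at 0.001 throughout a group. List genes are named where called between sorted groups, receptors, kinases and STAT proteins always, as are the other rows most correlated with the members; some genes that this rule names are not reported here. Ifng, Ifnb1, Ifna1, Ifne, Ngp, Siglech and Cd3e were named after their values were seen. Positions are those of GRCm38.p6. The alternatives were another pseudocount, other filters, other scalings, replicate blocks, a fit of only the groups compared, rows at 0.001 in a whole group set to missing, and leaving out each library.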

Additional observations from a re-analysis of the deposited data

Results flagged for a closer look

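In 4 of 90 groups (18 members in 5 groups each) 1 library stood apart from the rest of its group by Dixon's criterion, which chance meets in about 1 in 20 groups. Gbp2 was 17.65 FPKM in the prefix 26 library of MacHigh cells, where the next highest was 7.134. Mx1 was 4.881 FPKM in the prefix R library of MacLowKit+Sca1- cells, where the next highest was 2.284. Ifi35 was lowest in the prefix 11 library in MacLowKit+Sca1+ cells (29.69 FPKM, the next lowest 46.03) and in MacLowKit-Sca1- cells (22.36 FPKM, the next lowest 25.42).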

How the results depend on the processing

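None of the 220 called member differences reversed under any alternative: 1872 of 1956 values under other settings and 5110 of 5280 with 1 library left out kept the call, and the others lost it. Counts of members called ranged, with 1 library left out, over 12 to 15 for MacLowKit+Sca1+ against MacHigh, 22 to 28 against MacLowKit-Sca1-, 24 to 26 against MacLowKit+Sca1- and 13 to 18 against unsorted cells. They ranged over 28 to 30 for MacLowKit+Sca1- against MacHigh, 22 to 26 against MacLowKit-Sca1- and 25 to 28 against unsorted cells. They ranged over 25 to 29 for MacLowKit-Sca1- against MacHigh, 6 to 14 against unsorted cells, 16 to 22 for MacHigh against unsorted cells, and 32 to 35 for the F test. The 6 came without unsorted replicate 1 or without MacLowKit-Sca1- replicate 4. With all libraries at the same FPKM sum, MacHigh against unsorted gave 10 in place of 22.

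With the prefix as a replicate block the counts were 16, 30 and 29 for MacLowKit+Sca1+ against MacHigh, MacLowKit-Sca1- and MacLowKit+Sca1-, 30 and 27 for MacLowKit+Sca1- against MacHigh and MacLowKit-Sca1-, and 29 for MacLowKit-Sca1- against MacHigh. Against unsorted cells they were 20, 28, 15 and 27, and 35 for the F test. For MacLowKit+Sca1+ cells the block gave 3 higher and 13 lower against MacHigh, and 25 higher and 5 lower against MacLowKit-Sca1- cells. Ifih1, Oas1a and Samd9l, which the block added against MacLowKit+Sca1- cells, were called lower in MacLowKit+Sca1+ cells. Between MacLowKit-Sca1- and MacHigh cells the block added Ifit1 (limma adjusted p = 0.00103) and Samd9l (limma adjusted p = 0.0427). The replicate numbers of the titles paired the samples in 0 of 10 comparisons, and a block on them gave 14, 27, 26, 30, 27 and 29 in the same order, 18, 26, 10 and 24 against unsorted cells, and 33 for the F test.

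Scaling to the same FPKM sum moved the median of all rows to 0.13 (MacLowKit+Sca1+ against MacHigh), -0.21 (against MacLowKit+Sca1-), 0.32 (MacLowKit+Sca1- against MacHigh), 0.18 (against MacLowKit-Sca1-), 0.15 (against unsorted) and -0.15 (MacHigh against unsorted). The share of all calls that were higher moved from 51.3% to 62.8%, 48.5% to 32.2%, 51.7% to 71.8%, 47.7% to 71.5%, 49.7% to 62.7% and 53.9% to 24.4% in these comparisons. It moved from 48.3% to 58.5% for MacLowKit-Sca1- against MacHigh, and against unsorted cells from 52.3% to 40.9% for MacLowKit+Sca1+ and from 38.9% to 9.15% for MacLowKit-Sca1-. Quantile normalization gave 38.5% for MacLowKit+Sca1+ against MacLowKit+Sca1-, and against unsorted cells 64.6% for MacLowKit+Sca1- and 53.2% for MacLowKit-Sca1-. The cause of these moves was not tested. Without read counts, precision at low FPKM cannot be given.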
